A study of Mus musculus with 24 samples.

Results

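The 6 arrays described here measured RNA from the distal ends of the mandible and the maxilla of mutant mouse embryos at embryonic day 14.5, with 3 arrays for each jaw. They were chosen by their titles, as the mutant distal mandible and mutant distal maxilla arrays of a series of 24 arrays in 8 groups of 3. Mutants came from matings of Wnt1cre;Alk5fl/+ with Alk5fl/fl mice on a C57B6 background and were recognised by their cleft palate with a skull vault defect. Alk5, whose gene symbol is Tgfbr1, encodes a type I receptor for TGF-beta. Wnt1-Cre recombines floxed alleles in the neural crest lineage, so epithelium and other cells outside that lineage keep the receptor. Control littermates, of which 6 distal arrays are used for comparison, came from the same crosses, and the labels give no further genotype for them. The labels call each compartment bone, but the levels of epithelial, neural and muscle genes given below show that the dissected ends held more than bone.

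Upper and lower jaw both form from the first pharyngeal arch. In its mandibular part, endothelin-1 from the epithelium acts on the crest through its receptor Ednra and switches on Dlx5 and Dlx6, which in turn activate Hand2. In the maxillary part Dlx1 and Dlx2 act without Dlx5 and Dlx6. The tip of the upper jaw also borders the frontonasal process and the nasal cavity, so a dissected distal maxilla can hold nasal and olfactory epithelium.

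All values are robust multi-array average (RMA) signals on the log2 scale, and every difference is mandible minus maxilla with its standard error from limma, so a negative difference means a higher level in the maxilla. A gene was called at a Benjamini-Hochberg adjusted p under 0.05. The filter on low values used a level of 6.33 to 6.47, and a signal below that is called background here. Where the mean of either jaw was background, the difference can only bound the true one from below, and no fold is printed. Whether each array is a separate embryo is not in the labels, and the p-values therefore cover the spread among these arrays, which may be technical. Arrays of the same replicate number deviated together in the mutant distal jaws, and values with that number as a block are given where they change a call or a list's count.

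One of the 6 arrays stood apart. Mutant distal maxilla array 3 had a mean correlation of 0.9725 with the other arrays of its own group and of 0.976 with the mutant distal mandible arrays, whereas maxilla arrays 1 and 2 reached 0.9848 and 0.9806 within their group. Its mean level over the nasal secretory genes was 6.84, against 8.28 and 8.55 in maxilla arrays 1 and 2. Its mean over the bone genes was 10.68, against 8.88 and 8.65, and its mean over the skeletal muscle genes was 7.84, against 6.62 and 6.5. Mutant jaw differences that changed call, or called ones that moved by over 1.5-fold, without this array are given with and without it. Among the comparison arrays, control distal maxilla array 3 had the lowest array weight of the series in limma (0.212), and mutant proximal maxilla array 3 correlated better with the proximal mandible arrays (0.9811) than with its own group (0.9688).

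**Figure D1:**
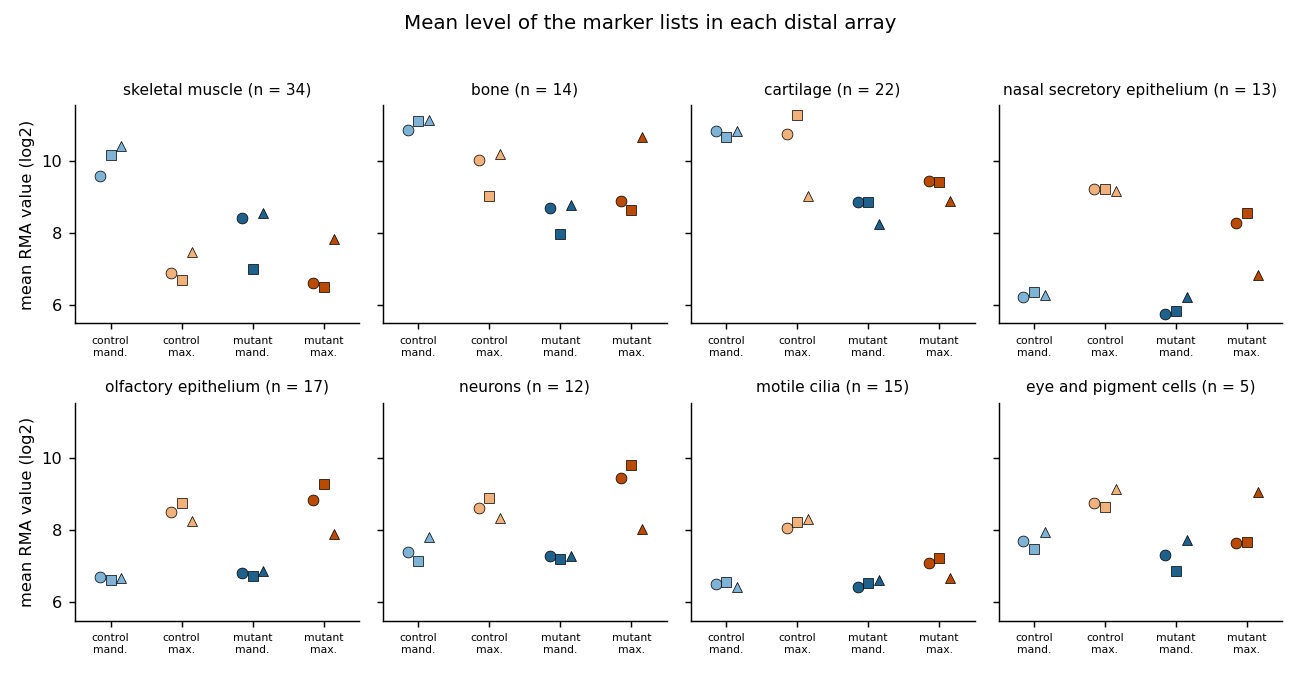
Mean RMA value (log2) over the tested members of 8 marker lists in each of the 12 distal arrays, with circles, squares and triangles for replicate numbers 1, 2 and 3 and colours for the 4 groups. The third array of the mutant maxilla lies above the other mutant maxilla arrays for bone, muscle and pigment genes and below them for nasal, olfactory, neuronal and ciliary genes.

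Tgfbr1 itself did not separate the mutant jaws. It read 12.48, 12.35 and 12.24 in the mandible and 12.57, 12.46 and 12.20 in the maxilla, a difference of -0.06 ± 0.09 (adjusted p = 0.756). The position of the probe set relative to the deleted part is not given, so this level does not check the genotype.

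Of 13942 genes tested, 1365 (9.79%) differed between the mutant distal jaws. Of these, 420 (3.01%) were higher in the mandible and 945 (6.78%) in the maxilla, and 29.2% of all tested genes had arrays of the jaws that did not overlap. The median difference of all tested genes was 0.01. After a renewed quantile normalization of the arrays 759 genes were higher in the mandible and 883 in the maxilla, which raised the mandible's share of the calls from 30.8% to 46.2% and the median of all genes to 0.04. Blocking on the replicate number gave 2229 called genes (775 and 1454). Leaving out maxilla array 3 gave 1856 calls (600 and 1256), among them 89.8% of the 1365. Without maxilla array 2 the count was 655, without maxilla array 1 it was 705, and without mandible array 2 it was 724.

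The control distal jaws differed in 2486 genes (17.8%), 1167 of them higher in the mandible (8.37%) and 1319 in the maxilla (9.46%); without control mandible array 3 the count was 1645. Both genotypes shared 171 genes that were higher in the mandible, which is 14.7% of the control calls and 40.7% of the mutant calls in that direction. They shared 467 genes that were higher in the maxilla, or 35.4% of the control calls and 49.4% of the mutant calls. Of the 1167 genes higher in the control mandible, 876 had the same sign in the mutant, and their median difference was 0.49 in controls and 0.13 in mutants. Of the 1319 genes higher in the control maxilla, 1124 had the same sign, with medians of -0.72 and -0.32. These genes were chosen by their difference in the control arrays, which enlarges the control medians. The smaller mutant medians therefore do not measure an effect of the genotype. The jaw difference itself differed between the genotypes in 461 genes (3.31%), and 21 and 15 genes were called in opposite directions in the 2 genotypes. Blocking on the replicate number gave 1052 called interactions. That block also pairs the control arrays by number, and whether those are paired was left undecided. The same limit holds for every genotype interaction given below with the block. The count fell to 191 without control mandible array 3 or mutant mandible array 2, to 210 without control maxilla array 3, to 230 without mutant maxilla array 1, and to between 264 and 267 without control mandible array 1 or 2 or mutant mandible array 3.

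**Figure D2:**
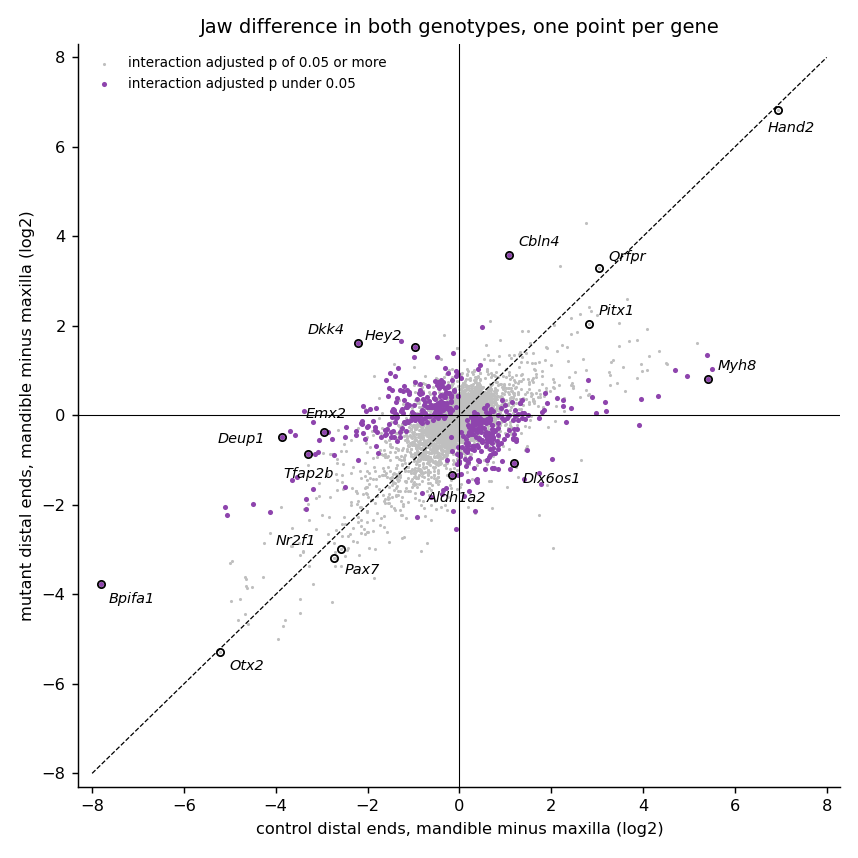
Mandible minus maxilla difference (log2) of each of the 13942 tested genes in control distal ends (x axis) and mutant distal ends (y axis), with genes whose jaw difference differed between genotypes in purple and the line of equal difference dashed. Hand2, Qrfpr and Otx2 lie close to the dashed line, whereas Bpifa1, Emx2, Tfap2b, Deup1 and Myh8 lie nearer to the horizontal axis and Dkk4, Hey2 and Dlx6os1 on opposite sides of the axes.

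Hand2, the transcription factor that patterns the distal mandible, stayed fully apart. It read 13.04, 13.09 and 12.98 in the mutant mandible, against 5.48, 5.99 and 7.16 in the mutant maxilla. The lowest mandible array lay 5.82 above the highest maxilla array, which was maxilla array 3, and the other maxilla arrays were at background. The difference of 6.83 ± 0.36 (adjusted p = 3.78e-10) was a lower limit, and without maxilla array 3 it was 7.30. Control ends differed by 6.94 ± 0.36, and the genotype interaction was -0.12 ± 0.51 (adjusted p = 0.95). Its relative Hand1 read 8.02, 7.96 and 7.85 in the mutant mandible and 7.49, 7.45 and 7.28 in the maxilla, a 1.45-fold difference (adjusted p = 0.00533) that the controls did not show (0.08 ± 0.12, adjusted p = 0.697; interaction adjusted p = 0.149).

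Pitx1, a homeobox factor of the lower jaw and hindlimb, read 10.87, 10.37 and 10.47 in the mutant mandible and 8.54, 8.57 and 8.48 in the maxilla. The groups lay far apart, with a 4.11-fold difference of 2.04 ± 0.19 (adjusted p = 3.36e-06). In controls the difference was 2.83 ± 0.19, and the interaction of -0.79 ± 0.27 did not pass the test (adjusted p = 0.127). Nkx2-3, a homeobox gene of oral and pharyngeal tissue, read 9.36, 9.58 and 9.65 against 7.54, 7.76 and 7.61. Its 3.72-fold difference (adjusted p = 3.36e-06) stood beside a control difference of 1.5 ± 0.18. Plagl1, a zinc finger growth regulator, was 1.33-fold higher in the mutant mandible (adjusted p = 0.00768; 0.0638 without maxilla array 2).

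Dlx1 and Dlx2, which act in both jaws, were also higher in the mutant mandible. Dlx1 read 8.47, 8.56 and 8.79 in the mandible and 6.83, 6.94 and 7.45 in the maxilla, a difference of 1.53 ± 0.40 (adjusted p = 0.0171). Dlx2 read 9.71, 9.72 and 10.20 against 8.2, 7.79 and 8.91, a difference of 1.58 ± 0.48 (adjusted p = 0.0437). The arrays of the jaws did not overlap for either gene. Dlx1 missed the threshold without mandible array 2 or 3 or maxilla array 1 or 2 (adjusted p up to 0.0815), and Dlx2 without any array but maxilla array 3 (up to 0.195). In controls the differences were 2.35 ± 0.40 and 2.24 ± 0.48, and neither interaction was called (adjusted p = 0.546 and 0.726).

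Dlx5 and Dlx6, the pair that sets mandibular identity, did not separate the mutant jaws. Dlx5 read 10.82, 10.63 and 10.59 in the mutant mandible, against 10.79, 11.02 and 10.85 in the mutant maxilla. These ranges overlapped, and the difference was -0.20 ± 0.17 (adjusted p = 0.523). In controls Dlx5 was 0.70 ± 0.17 higher in the mandible (adjusted p = 0.00834), with 11.27, 11.20 and 11.25 against 10.73, 10.54 and 10.34. The interaction of -0.91 ± 0.25 reached an adjusted p of 0.0489 and was lost without any array except control maxilla array 1, up to 0.143 without control maxilla array 3. Dlx6 read 9.85, 9.32 and 8.99 in the mutant mandible and 9.58, 9.80 and 9.11 in the maxilla, a difference of -0.11 ± 0.25 (adjusted p = 0.841) against 0.95 ± 0.25 in controls, and its interaction was not called (-1.06 ± 0.35, adjusted p = 0.11).

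Dlx6os1, the noncoding RNA transcribed beside Dlx6 on the other strand and read here by the probe set that the platform annotation gives it, turned over. It read 8.13, 7.70 and 7.70 in the mutant mandible, against 8.79, 9.31 and 8.65 in the mutant maxilla, so every maxilla array was higher. The difference was -1.07 ± 0.26 (adjusted p = 0.0103), 2.10-fold higher in the maxilla. Control mandible arrays read 8.91, 8.74 and 8.92 and control maxilla arrays 7.86, 8.09 and 7.05, a difference of 1.19 ± 0.26 in the other direction. The interaction was -2.26 ± 0.36 (adjusted p = 0.00181). The mutant call was lost without mandible array 2 or maxilla array 2 (adjusted p up to 0.0775), while the interaction was called without any single array.

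The start regions of Hand2, which kept its jaw difference, and of Dlx6os1, which turned, are shown because homeodomain proteins such as the Dlx factors commonly bind the letters TAATTA, given in capitals (the same on both strands). Each runs 5′ to 3′ on the strand of the gene, over 300 bases around the annotated start, from RefSeq on GRCm38.p6. Hand2 lies on chr8:57320733-57321032 (plus strand), and Dlx6os1 has 2 annotated starts, on chr6:6861634-6861933 and chr6:6869484-6869783 (minus strand).
Hand2: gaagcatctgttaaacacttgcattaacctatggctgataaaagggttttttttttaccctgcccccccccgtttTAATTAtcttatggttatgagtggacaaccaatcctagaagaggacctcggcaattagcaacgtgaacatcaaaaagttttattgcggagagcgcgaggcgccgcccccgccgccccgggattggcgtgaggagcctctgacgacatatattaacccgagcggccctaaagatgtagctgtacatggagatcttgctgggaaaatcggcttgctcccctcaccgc
Dlx6os1, first window: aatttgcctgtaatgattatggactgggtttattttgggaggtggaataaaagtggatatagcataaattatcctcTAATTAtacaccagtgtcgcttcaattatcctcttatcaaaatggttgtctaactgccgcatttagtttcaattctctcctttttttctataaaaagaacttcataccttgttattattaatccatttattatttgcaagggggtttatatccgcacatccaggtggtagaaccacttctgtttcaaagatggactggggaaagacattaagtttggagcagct
Dlx6os1, second window: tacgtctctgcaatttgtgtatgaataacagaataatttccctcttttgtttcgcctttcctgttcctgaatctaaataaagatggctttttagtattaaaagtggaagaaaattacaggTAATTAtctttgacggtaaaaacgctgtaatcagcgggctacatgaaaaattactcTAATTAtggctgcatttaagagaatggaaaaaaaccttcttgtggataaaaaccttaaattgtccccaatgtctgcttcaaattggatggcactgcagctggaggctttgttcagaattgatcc
The Hand2 window holds the letters 1 time and the Dlx6os1 windows 1 and 2 times, and 5.29% of 32851 promoter windows of this length hold them. The array does not tell which Dlx6os1 start was used.

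Over the list of mandibular identity factors, 18 of 20 genes were tested, with a median of 0.31. Of these, 5 were called higher in the mutant mandible and 2 higher in the mutant maxilla, beside 3.01% and 6.78% of all genes. In controls 9 were higher in the mandible and 0 in the maxilla, beside 8.37% and 9.46% of all genes, with a median of 0.69. Besides Dlx6os1, the second gene that was higher in the mutant maxilla was Bmper, a secreted regulator of BMP signalling. Bmper read 9.41, 8.98 and 8.35 in the mandible and 10.29, 10.25 and 10.43 in the maxilla (-1.41 ± 0.28, adjusted p = 0.00309), against -0.56 ± 0.28 in controls (adjusted p = 0.19). Gsc, a target of the endothelin pathway, and Cited1 were called in controls (1.73 ± 0.48 and 1.23 ± 0.29) but not in mutants (0.57 ± 0.48 and 0.36 ± 0.29), and neither interaction passed (adjusted p = 0.454 and 0.323). Dlx3 and Dlx4 differed by -0.09 ± 0.22 and 0.07 ± 0.30, with overlapping arrays. Cyp26a1, which degrades retinoic acid, belonged to the list of maxillary identity factors instead. It was 2.06 ± 0.28 higher in the control mandible and 0.74 ± 0.28 higher in the mutant mandible (adjusted p = 0.108, 0.0403 with the replicate block and 0.0408 without maxilla array 3). Its interaction was not called (adjusted p = 0.0808, and 0.0239 with the block).

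**Figure D3:**
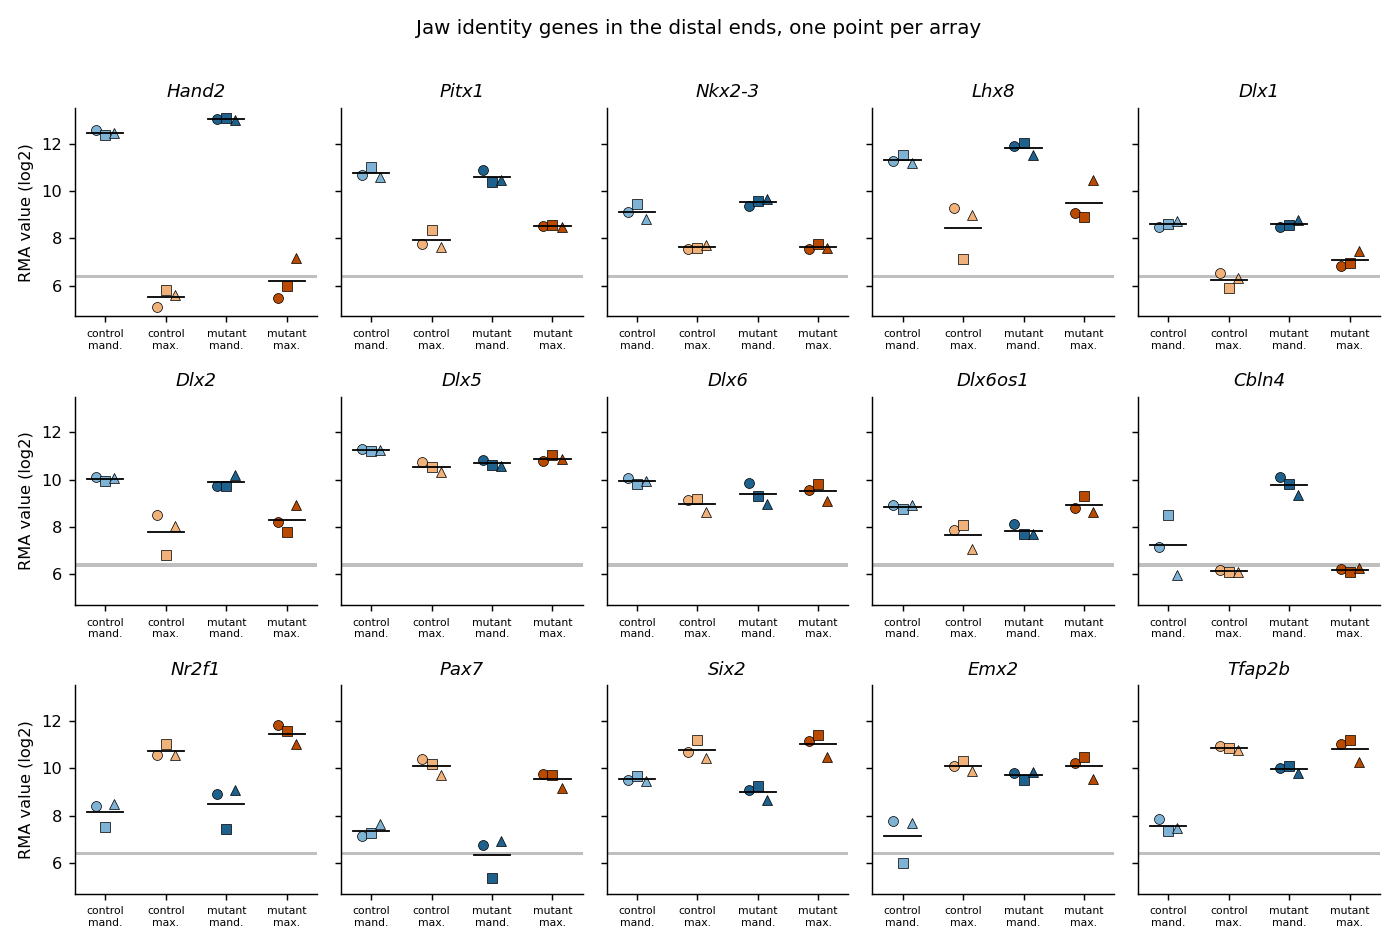
RMA values (log2) of 15 jaw genes in the 12 distal arrays, 1 point per array with a circle, square or triangle for replicate number 1, 2 or 3, the group mean as a black line and the filter level as a grey band. Hand2, Pitx1, Nkx2-3, Nr2f1, Pax7 and Six2 lie apart between the jaws in both genotypes, Dlx5, Dlx6 and Emx2 overlap in the mutant, and Dlx6os1 changes sides.

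Other genes led the mandible side. Qrfpr, a neuropeptide receptor, read 7.29, 7.38 and 7.56 in the mutant mandible and 4.0, 4.14 and 4.19, at background, in the maxilla (3.30 ± 0.12, adjusted p = 8.01e-13). Masp1, a protease of the lectin complement pathway, read 9.35, 9.88 and 9.66 against 7.40, 7.31 and 7.62, a 4.55-fold difference (adjusted p = 1.29e-08). Sfrp4, a secreted Wnt inhibitor, read 11.46, 11.92 and 11.40 against 7.63, 7.34 and 9.41, an 11.1-fold difference (3.47, adjusted p = 9.14e-05; 4.11 without maxilla array 3). In controls the differences of these 3 genes were 3.04, 2.43 and 3.80, and no interaction was called (adjusted p from 0.534 to 0.877). Krt13, a keratin of oral epithelium, differed by 4.31 ± 0.74 and the epithelial protease gene Tmprss11a by 3.33 ± 0.43. Vgll2 (2.61 ± 0.56), the orphan receptor gene Gpr50 (2.25 ± 0.39) and the enamel-associated gene Odam (2.06 ± 0.34) completed this set. All 5 were also called in controls, and Odam's interaction passed only with the replicate block (adjusted p = 0.116, and 0.033 with it).

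Cbln4, a secreted synapse-organising protein, separated the mutant jaws more than the control jaws. It read 10.10, 9.83 and 9.35 in the mutant mandible and 6.21, 6.08 and 6.25, at background, in the maxilla. Control mandible arrays read 7.16, 8.52 and 5.99 and control maxilla arrays 6.19, 6.09 and 6.12. The mutant difference was 3.58 ± 0.42 (adjusted p = 2.5e-05), the control difference 1.09 ± 0.42 (adjusted p = 0.0818) and the interaction 2.49 ± 0.59 (adjusted p = 0.0255). The interaction was lost without any one of 6 arrays (control mandible 1 or 3, control maxilla 3, mutant mandible 1 or 2, or mutant maxilla 1), up to an adjusted p of 0.067 without mutant mandible array 2. The LIM homeobox gene Lhx9 was called in mutants (2.12 ± 0.48, adjusted p = 0.00705) and not in controls (0.67 ± 0.48), with an interaction adjusted p of 0.303.

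On the maxilla side, the nuclear receptor Nr2f1 and the paired-box factor Pax7, both made by crest of the upper face, stayed well apart. Nr2f1 read 8.92, 7.43 and 9.08 in the mutant mandible and 11.82, 11.55 and 11.02 in the maxilla, a 7.94-fold difference (-2.99 ± 0.34, adjusted p = 1.99e-05). Pax7 read 6.77, 5.37 and 6.92 against 9.75, 9.70 and 9.17 (-3.19 ± 0.36, adjusted p = 1.99e-05). Six2, a homeobox gene of the frontonasal process, read 9.07, 9.25 and 8.67 against 11.14, 11.42 and 10.48, a 4.04-fold difference (adjusted p = 4.5e-06). No jaw arrays overlapped for these genes, and the control differences were -2.58, -2.74 and -1.22. The interaction of Six2 passed only with the replicate block (adjusted p = 0.136, and 0.0255 with it) or without maxilla array 3 (0.0186).

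Sp8 and Zic1, zinc finger factors of the frontonasal region, were at background in the mutant mandible. Sp8 read 9.24, 9.64 and 7.58 in the mutant maxilla (-4.58 ± 0.79, adjusted p = 0.00102) and Zic1 read 10.12, 10.30 and 8.42 (-4.17 ± 0.68, adjusted p = 0.000596). Maxilla array 3 was the lowest for both, and without it the differences were -5.19 and -4.76. Of 10 tested frontonasal crest factors, 5 were called higher in the mutant maxilla and 1, Alx4, in the mutant mandible, beside 6.78% and 3.01% of all genes. Of the 5, 1 did not pass the filter on low values without the maxilla arrays. Alx4 differed by 0.38 ± 0.10 (adjusted p = 0.0234, and 0.0779 without maxilla array 3). Alx4 also missed the threshold without mandible array 1 or 2 or maxilla array 2 (adjusted p up to 0.129). In controls the counts were 6 and 0, beside 9.46% and 8.37% of all genes.

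Among the maxillary identity factors, 14 of 15 genes were on the array and tested. Of these, 4 were higher in the mutant maxilla and 2, Dlx1 and Dlx2, higher in the mutant mandible, beside 6.78% and 3.01% of all genes. In controls 4 and 4 were called, beside 9.46% and 8.37%. The mutant counts became 4 and 3 with the replicate block, and 3 and 3 without maxilla array 3. Nr2f2, the relative of Nr2f1, differed by -1.02 ± 0.20 in mutants (adjusted p = 0.00301; 0.0771 in a fit of the 6 arrays alone) and -0.43 ± 0.20 in controls (adjusted p = 0.166). Foxl2, a forkhead factor of the eyelid and upper face, differed by -1.27 ± 0.30 (adjusted p = 0.0098; 0.0792 without maxilla array 1), and its second probe set, at background, by 0.01. Pou3f4 differed by -1.42 ± 0.36 (adjusted p = 0.0147), but by -0.87 without maxilla array 3 (adjusted p = 0.0572), and it also lost the call without mandible array 3 or maxilla array 1 (up to 0.0642). Pou3f3, a driver of maxillary skeletal elements, read 11.12, 10.57 and 10.86 in the mutant mandible and 11.14, 11.16 and 10.75 in the maxilla, which overlapped (-0.17 ± 0.37, adjusted p = 0.838). In controls it was higher in the maxilla (-1.37 ± 0.37, adjusted p = 0.0145), and the interaction of 1.21 ± 0.53 did not pass the test (adjusted p = 0.263).

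Emx2, a homeobox gene of the upper jaw and forebrain, had a smaller jaw difference in the mutant than in controls. It read 9.78, 9.51 and 9.83 in the mutant mandible, against 10.22, 10.46 and 9.56 in the mutant maxilla, ranges that overlapped (-0.38 ± 0.33, adjusted p = 0.536). Control mandible arrays read only 7.78, 6.0 and 7.69, against 10.11, 10.30 and 9.90 in the control maxilla (-2.95 ± 0.33). The interaction was 2.57 ± 0.47 (adjusted p = 0.00409) and was called without any single array. The maxilla levels of the genotypes overlapped, and the mutant mandible lay above the control mandible in every array.

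Tfap2b, a crest transcription factor, followed a like course. It read 9.99, 10.10 and 9.78 in the mutant mandible and 11.02, 11.17 and 10.27 in the maxilla, with control mandible arrays at 7.85, 7.35 and 7.47 and control maxilla arrays at 10.95, 10.84 and 10.76. The jaw difference was -0.86 ± 0.26 in mutants (adjusted p = 0.0434), against -3.29 ± 0.26 in controls, and the interaction was 2.43 ± 0.37 (adjusted p = 0.00134). The mutant call was lost under the renewed quantile normalization and without any array but maxilla array 3 (adjusted p up to 0.212). Its relative Tfap2a differed by -0.14 ± 0.20 in mutants and -1.21 ± 0.20 in controls. The Tfap2a interaction (1.07 ± 0.29, adjusted p = 0.048) was lost without any array except control maxilla array 2, up to 0.122 without mutant mandible array 2.

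Of 15 tested palate transcription factors, 2 were higher in the mutant mandible and 1 in the maxilla, where the shares over all genes were 3.01% and 6.78%. In controls the counts were 7 and 0, beside 8.37% and 9.46% of all genes. With the replicate block the mutant counts were 3 and 2, and without maxilla array 3 they were 3 and 1. Lhx8, a LIM homeobox factor of tooth and palate mesenchyme, read 11.90, 12.01 and 11.52 in the mutant mandible and 9.08, 8.91 and 10.44 in the maxilla. The difference of 2.33 ± 0.69 was called (adjusted p = 0.0388), but without any array except maxilla array 3 it was not (adjusted p up to 0.165). Osr1, a palate outgrowth factor, was 2.07-fold higher in the mutant mandible (adjusted p = 0.00592; 0.0501 without maxilla array 2) and differed by 0.17 ± 0.23 in controls. Prdm16, whose loss gives a cleft palate, was 3.18-fold higher in the mutant maxilla (adjusted p = 0.00795) and differed by -0.61 ± 0.38 in controls.

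Foxf1, Tbx22, Foxf2 and Meox2 separated the control jaws and overlapped in the mutant. Foxf1 differed by 0.42 ± 0.46 in mutants and 2.63 ± 0.46 in controls, and its interaction passed only with the replicate block (adjusted p = 0.0703, and 0.037 with it). Tbx22 differed by -0.14 ± 0.53 and 2.09 ± 0.53, with interaction adjusted p-values of 0.118, 0.0193 with the block and 0.0353 without maxilla array 3. Foxf2 differed by 0.97 ± 0.39 (adjusted p = 0.129; 0.0446 without maxilla array 3), and Meox2 by -0.10 ± 0.44, and neither interaction was called. Pax9, which is needed for teeth and palate, read 8.78, 8.72 and 8.47 in the mutant mandible and 9.22, 9.06 and 9.02 in the maxilla (-0.44 ± 0.16, adjusted p = 0.0886). In controls it was 0.56 ± 0.16 higher in the mandible, and the interaction of -1.01 ± 0.23 was called (adjusted p = 0.0191). It was lost without control maxilla array 3, mutant mandible array 3 or mutant maxilla array 1 (up to 0.0643).

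Among Wnt response genes and antagonists, 8 of 20 were higher in the mutant mandible, and 2 (3 with the replicate block) in the mutant maxilla. The shares over all genes were 3.01% and 6.78%, and the median of the list was 0.38. In controls the counts were 5 and 5, beside 8.37% and 9.46% of all genes. Lef1, a nuclear effector of Wnt signalling, read 11.34, 11.45 and 11.07 in the mutant mandible and 10.59, 10.41 and 10.62 in the maxilla, a 1.67-fold difference (adjusted p = 0.000413). In controls it was lower in the mandible (-0.36 ± 0.12, adjusted p = 0.0345), and the interaction was 1.10 ± 0.16 (adjusted p = 0.00109). The Wnt antagonist gene Dkk4, a marker of placodes, read 8.34, 9.48 and 8.16 against 6.68, 6.84 and 7.58 in mutants (1.63 ± 0.31, adjusted p = 0.00206; 0.0692 in a fit of the 6 arrays alone). Control mandible arrays read 6.71, 5.86 and 6.14 and control maxilla arrays 8.13, 8.35 and 8.82, the opposite order (-2.20 ± 0.31; interaction 3.83 ± 0.43, adjusted p = 0.000431).

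Sfrp1, another secreted Wnt inhibitor, was 3.40-fold higher in the mutant maxilla (-1.76 ± 0.23, adjusted p = 8.29e-05), against -0.38 ± 0.23 in controls (interaction adjusted p = 0.024). That interaction was lost without control mandible array 2 or 3, control maxilla array 1 or 3, mutant mandible array 2 or mutant maxilla array 1 or 2 (up to 0.0818). Hey2, a Notch target, was 2.88-fold higher in the mutant mandible (adjusted p = 0.00233) and lower in the control mandible (-0.96 ± 0.29, adjusted p = 0.0267), with an interaction of 2.49 ± 0.41 (adjusted p = 0.00222). Fgf18, a growth factor for cartilage and bone, was 3.07-fold higher in the mutant mandible (adjusted p = 1.74e-05) and 1.53 ± 0.18 higher in the control mandible.

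In the retinoic acid list, 4 of 15 tested genes were higher in the mutant maxilla and 1 in the mandible, beside 6.78% and 3.01% of all genes. The counts were 4 and 2 with the replicate block and 6 and 2 without maxilla array 3. Aldh1a2, which makes retinoic acid, read 8.86, 8.62 and 8.46 in the mutant mandible and 10.07, 10.14 and 9.69 in the maxilla (-1.32 ± 0.16, adjusted p = 3.57e-05). The control jaws overlapped (-0.15 ± 0.16), and the interaction was -1.17 ± 0.23 (adjusted p = 0.00668). Rdh10, which makes the precursor of retinoic acid, was 1.49-fold higher in the mutant mandible (adjusted p = 0.00202).

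In the TGF-beta list 2 of 23 genes were higher in the mutant mandible and 5 in the maxilla, beside 3.01% and 6.78% of all genes, with a median of -0.03. The counts were 3 and 5 with the replicate block and 4 and 3 without maxilla array 3. Tagln, a smooth muscle actin-binding protein and known TGF-beta target, was 1.97-fold higher in the mandible (adjusted p = 0.000843), with an interaction that passed only with the block (adjusted p = 0.111, and 0.0148 with it) or without maxilla array 3 (0.0353). Ltbp1, which holds latent TGF-beta in the matrix, was 1.39-fold higher (adjusted p = 0.00309), but not called when its probe sets were averaged (0.29, adjusted p = 0.0828). Tgfbi, a matrix protein induced by TGF-beta, was 1.99-fold higher in the maxilla (-0.99 ± 0.24, adjusted p = 0.0101) with an interaction of -1.40 ± 0.33 (adjusted p = 0.0259). Tgfbi missed the threshold without mandible array 3 or maxilla array 1 or 2 (adjusted p up to 0.0704), and its interaction without those 3 arrays, control mandible array 1 or 2 or control maxilla array 3 (up to 0.0882). In the BMP list, Bambi, a decoy receptor, was 1.64-fold higher in the mandible (adjusted p = 0.00639), and Bmpr1b, a type I BMP receptor, 3.79-fold higher in the maxilla (adjusted p = 0.0014; 0.0571 in a fit of the 6 arrays alone). Of 9 endothelin pathway genes 0 were higher in the mandible and 2 in the maxilla, beside 3.01% and 6.78% of all genes. One of the 2 was the receptor gene Ednrb (-0.63 ± 0.13, adjusted p = 0.0049). Without maxilla array 3 the counts were 1 and 2. Foxd1, a forkhead target of hedgehog signalling, was 2.70-fold higher in the maxilla (adjusted p = 0.00702) and differed by -0.18 ± 0.32 in controls (interaction adjusted p = 0.151, and 0.0199 with the block).

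**Figure D4:**
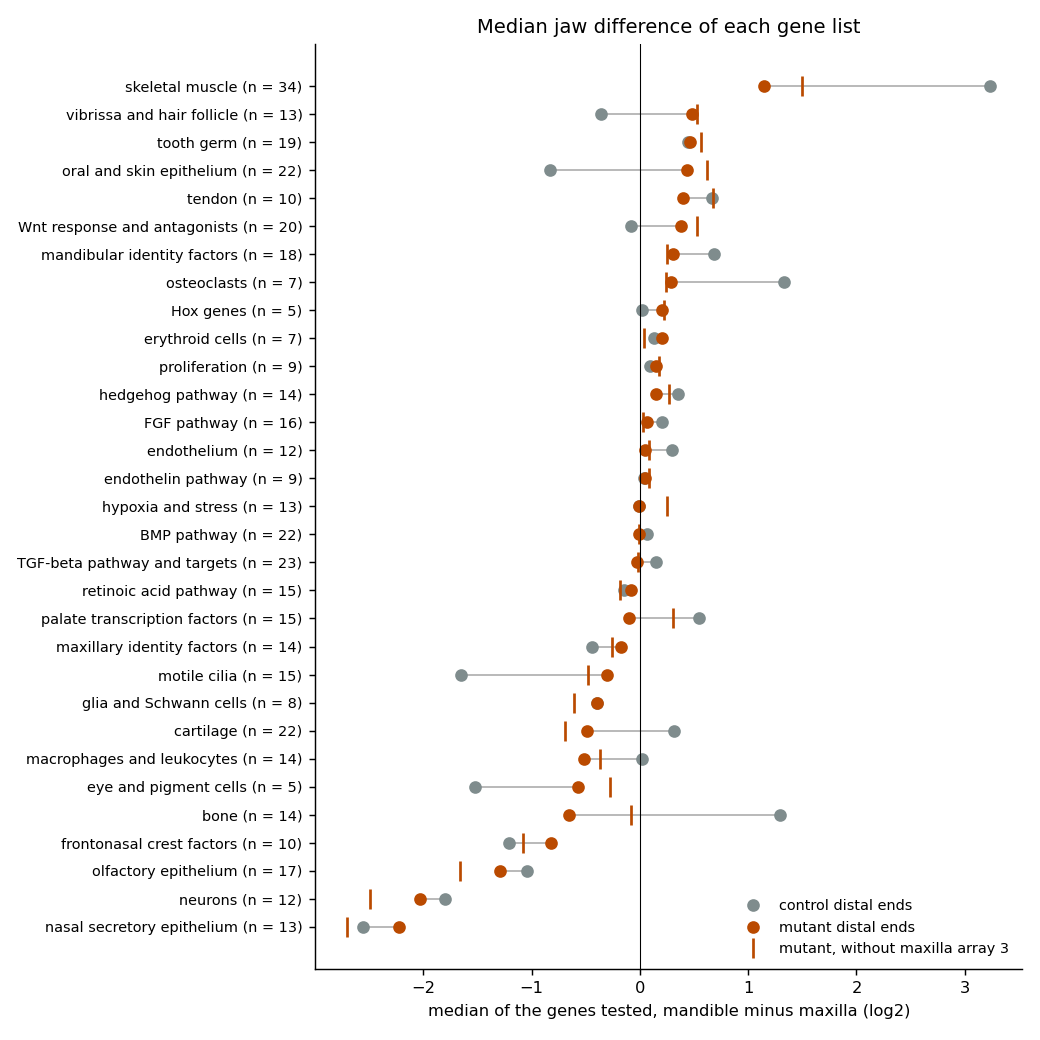
Median mandible minus maxilla difference (log2) of the tested members of each gene list in control distal ends (grey) and mutant distal ends (orange), with a vertical bar for the mutant without maxilla array 3 and the number of tested genes in brackets. Nasal secretory, olfactory and neuron lists lie on the maxilla side in both genotypes, and skeletal muscle, osteoclast, bone and motile cilia medians lie nearer to 0 in the mutant or on the other side of it. Several nasal, olfactory, neuron, ciliary and osteoclast genes failed the filter on low values without the arrays of the jaw where they are high. The medians of these lists therefore describe them and support no comparison.

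The nasal, olfactory and neuron lists had medians of -2.22, -1.29 and -2.03 in the mutant, on the maxilla side. However, 9 of 13, 10 of 17 and 4 of 12 of their tested genes failed the filter on low values without the maxilla arrays. A median on the maxilla side was therefore favoured by the filter. Otx2, a homeobox factor of forebrain and olfactory placode, read 4.20, 4.10 and 4.25, at background, in the mutant mandible and 10.12, 10.46 and 7.83 in the maxilla (-5.28 ± 0.95, adjusted p = 0.00144). Lhx2, needed for olfactory neurons, read 6.26, 5.96 and 5.99 against 10.62, 10.88 and 9.02 (-4.10 ± 0.54, adjusted p = 8.29e-05). Foxa1, a forkhead factor of airway epithelium, read 6.14, 6.08 and 6.87 against 11.20, 11.20 and 10.04 (-4.45 ± 0.54, adjusted p = 3.57e-05). In all 3 genes maxilla array 3 was the lowest maxilla array, and without it the differences were -6.10, -4.68 and -4.83.

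The claudin Cldn9 (-5.0), the neurogenic factor Neurod1 (-4.71), Fstl5 (-4.67), the estrogen sulfotransferase gene Sult1e1 (-4.56), Fam107a (-4.43), the olfactory factor Fezf1 (-4.14) and the neuronal gene Stmn3 (-4.11) followed, each called with an adjusted p of at most 0.0049. Every one was also called in controls with no called interaction. Sult1e1 read 10.40, 10.88 and 6.19 in the maxilla arrays, and its difference was -6.05 without array 3 (adjusted p = 0.0789 in a fit of all 6 arrays alone). Without that array Cldn9 differed by -5.73, Neurod1 by -5.42, Fstl5 by -5.50, Fam107a by -5.14 and Stmn3 by -5.08. Of 17 tested olfactory genes 10 were higher in the mutant maxilla and 0 in the mandible, and of 12 neuron markers 8 and 0, among them Elavl4 (-3.05 ± 0.56), Syt4 (-2.23 ± 0.34), Ina (-2.53 ± 0.51) and Prph (-2.96 ± 0.60). In controls the counts were 10 and 0, and 8 and 0. Of the tested genes, 10 olfactory genes and 4 neuron markers did not pass the filter on low values without the maxilla arrays. Among them were 8 and 3 of those called in the mutant, so the counts of called genes and the medians describe the lists and support no comparison. Without maxilla array 3 Elavl4 differed by -3.79, Ina by -3.25 and Prph by -3.81, and in a fit of the 6 arrays alone Ina and Prph were not called (adjusted p = 0.0701 and 0.0607). Prph has 3 further probe sets, which differed by 0.14, 0.27 and 0.05, and a second Pax6 probe set above the filter level in the mandible differed by 0.12. The mean neuron level was 9.46, 9.82 and 8.02 in the mutant maxilla and 7.28, 7.21 and 7.29 in the mandible, and its part in the genes above was not tested. Pax6 (-2.81 ± 0.44) was among the olfactory genes, and Fezf2 read 6.64, 7.83 and 7.05 in the mutant maxilla and 4.97 to 5.48 in the control maxilla (mutant difference -2.13 ± 0.31; interaction -1.98 ± 0.44, adjusted p = 0.0191). The Fezf2 interaction was lost without control maxilla array 3 or mutant mandible array 2 (up to 0.0582).

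Bpifa1, a secreted protein of the nasal airway, kept part of its difference. It read 9.12, 9.52 and 6.78 in the mutant maxilla and 4.64, 4.80 and 4.70, at background, in the mandible. Control maxilla arrays read 12.79, 12.98 and 11.88. The difference was -3.76 ± 0.58 in mutants (adjusted p = 0.000394) and -7.80 ± 0.58 in controls, both lower limits, and the interaction was 4.04 ± 0.82 (adjusted p = 0.00995). Without maxilla array 3 the mutant difference was -4.61 and the interaction 3.19 (adjusted p = 0.0111). Reg3g, an antimicrobial lectin of airway epithelium, differed by -3.84 ± 0.52 in mutants and -4.52 ± 0.52 in controls (interaction adjusted p = 0.744).

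Of 13 tested nasal secretory genes, from a list of 28, 8 were higher in the mutant maxilla and 1 in the mandible, with a median of -2.22, and in controls 8 and 0, with a median of -2.56. Blocking on the replicate number gave mutant counts of 9 and 1, and without maxilla array 3 they were 9 and 0. Of the 13 genes, 9 did not pass the filter on low values without the maxilla arrays. The counts and medians of this list therefore describe it and support no comparison. Aldh1a1, an aldehyde dehydrogenase of nasal epithelium, read 7.40, 8.28 and 6.41 in the mutant maxilla and 10.72, 10.48 and 11.17 in the control maxilla. Its jaw difference was -2.22 ± 0.47 in mutants and -5.05 ± 0.47 in controls (interaction 2.83 ± 0.66, adjusted p = 0.0234). That interaction was lost without any one of 5 arrays (control mandible 1 or 2, control maxilla 3, mutant mandible 3 or mutant maxilla 1), up to 0.0766 without control maxilla array 3. Elf5, a factor of salivary and other gland epithelium, was 6.3-fold higher in the mutant maxilla (-2.66 ± 0.56, adjusted p = 0.00442; -3.27 without maxilla array 3) and differed by -2.87 ± 0.56 in controls.

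Deup1, which builds the many centrioles of multiciliated cells, separated the control jaws and overlapped in the mutant. It read 6.29, 5.93 and 5.55 in the mutant maxilla and 5.26, 5.55 and 5.51 in the mandible, all at background (-0.49 ± 0.47, adjusted p = 0.58). Control maxilla arrays read 8.66, 9.05 and 9.51 (-3.86 ± 0.47; interaction 3.37 ± 0.66, adjusted p = 0.00779). Ccno, needed for the same step, differed by -1.44 ± 0.42 in mutants (adjusted p = 0.0334) and -3.65 ± 0.42 in controls. Its mutant call was lost without any array but maxilla array 3 (up to 0.174), and its interaction (2.21 ± 0.59, adjusted p = 0.045) without any distal array except mutant mandible array 1 and mutant maxilla array 2 (up to 0.113). Of 15 tested ciliary genes 2 were higher in the mutant maxilla and 12 in the control maxilla, and 6 had a called interaction. Without maxilla array 3 the mutant count was 4 and the interaction count 2. Of the 15, 10 did not pass the filter on low values without the maxilla arrays. For 6 of them this held without the control maxilla arrays alone. All 6 were called in controls, so these counts support no comparison.

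**Figure D5:**
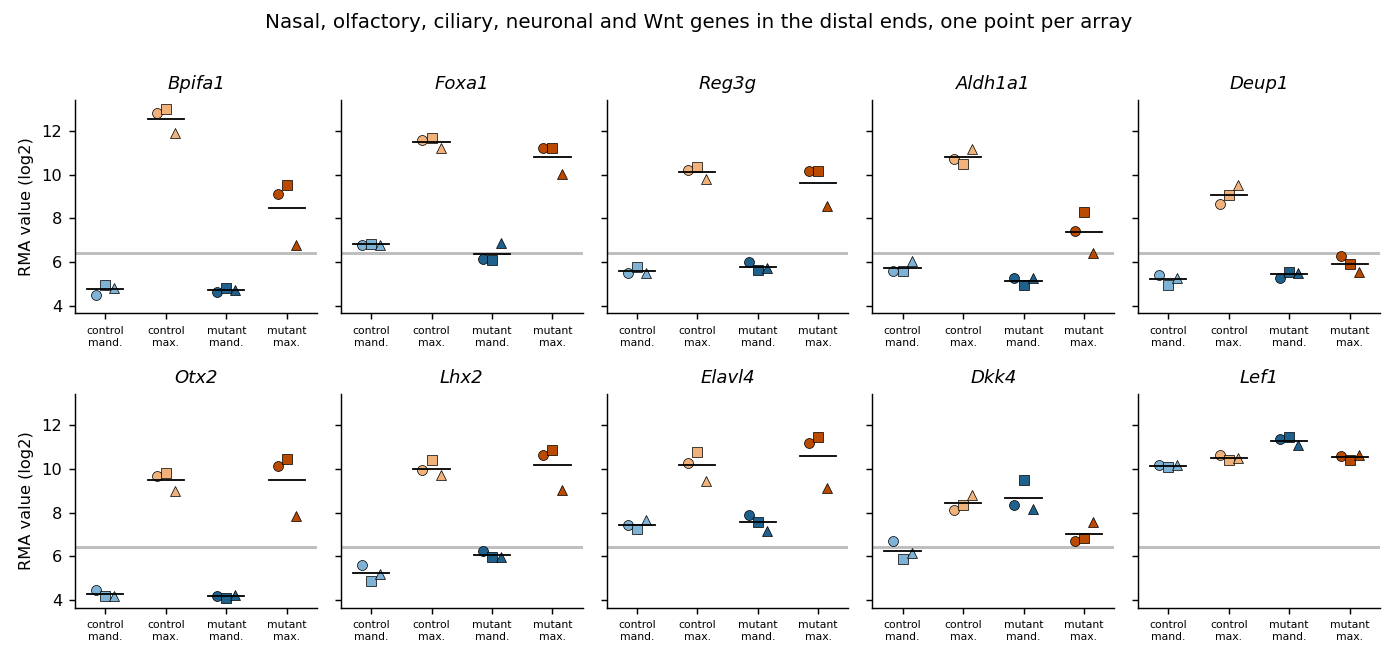
RMA values (log2) of 10 nasal, olfactory, ciliary, neuronal and Wnt genes in the 12 distal arrays, 1 point per array with a circle, square or triangle for replicate number 1, 2 or 3, the group mean as a black line and the filter level as a grey band. Bpifa1, Aldh1a1 and Deup1 are lower in every mutant maxilla array than in any control maxilla array, and Dkk4 has the jaws in opposite order in the genotypes.

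Epithelial genes split. Of 22 tested oral and skin epithelial genes 2 were higher in the mutant mandible and 4 in the maxilla, beside 3.01% and 6.78% of all genes. The counts were 4 and 5 with the replicate block and 5 and 4 without maxilla array 3. In controls they were 1 and 11, beside 8.37% and 9.46% of all genes. The median of the list lay on the mandible side in mutants, at 0.44 (0.62 without maxilla array 3), and was -0.83 in controls. Krt13, given above, was among the genes higher in the mutant mandible. Krt8 and Krt18, keratins of simple epithelia, were 6.09-fold and 3.91-fold higher in the mutant maxilla (adjusted p = 0.000157 and 0.00233). Lor, a protein of cornified skin, was 3.34-fold higher there (adjusted p = 0.00308). Hrnr, a further cornified envelope gene, read 7.69, 7.43 and 7.97 in the mutant maxilla and was at background in the mandible (-3.81 ± 0.55, adjusted p = 0.000212). Sox2, a factor of oral and sensory epithelium, was 3.68-fold higher in the maxilla (adjusted p = 0.000344).

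Dynap, Stfa3 and Sdr16c6, which had some of the largest genotype interactions, were not called in the mutant. Dynap read 8.24, 8.84 and 8.51 in the mutant mandible and 8.28, 8.88 and 8.12 in the maxilla (0.11 ± 0.47, adjusted p = 0.92), against -3.39 ± 0.47 in controls (interaction 3.5 ± 0.66, adjusted p = 0.00535). The protease inhibitor gene Stfa3 differed by -0.34 ± 0.53 (adjusted p = 0.749) and -3.70 ± 0.53, and the dehydrogenase gene Sdr16c6 by -0.44 ± 0.57 (adjusted p = 0.694) and -3.58 ± 0.57. Both have their highest mutant value in maxilla array 3 (12.15 and 9.28), without which they differed by 0.51 and 0.26. Their interactions (3.36 and 3.14, adjusted p = 0.0192 and 0.0383; 4.21 and 3.84 without mutant maxilla array 3) were both lost without control maxilla array 3 (0.067 and 0.125). That of Stfa3 was also lost without control mandible array 3, mutant mandible array 2 or mutant maxilla array 1, and that of Sdr16c6 without any distal array except control maxilla array 2 and mutant maxilla array 3.

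Of 19 tested tooth germ genes 5 were higher in the mutant mandible and 0 in the maxilla, beside 3.01% and 6.78% of all genes. The counts were 6 and 0 with the replicate block and 7 and 0 without maxilla array 3. In controls they were 6 and 1 (10 and 1 with the block), beside 8.37% and 9.46% of all genes. Bmp4, a growth factor of dental mesenchyme, was 1.57-fold higher (adjusted p = 0.0109; 0.079 without mandible array 2, and also lost without maxilla array 1). Wnt10a, a ligand of tooth epithelium, was 1.84-fold higher (adjusted p = 0.0102), but not called without mandible array 2 or maxilla array 1 or 2 (up to 0.0669). Irx1, a homeobox gene of tooth epithelium and lung, was 2.42-fold higher (adjusted p = 0.0218) but not called without mandible array 1 or 3 or maxilla array 2 (up to 0.161). The Irx1 interaction passed only with the block (adjusted p = 0.0582, and 0.0185 with it) or without maxilla array 3 (0.0112). Klhl14 was higher in the mutant mandible (1.39 ± 0.23, adjusted p = 0.000836), and differed by -0.13 ± 0.23 in controls. Its interaction (1.52 ± 0.33, adjusted p = 0.0164) was lost without control mandible array 3 or mutant mandible array 2 (up to 0.0604).

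Skeletal muscle genes, the list with the largest median in the control comparison, were not called in the mutant. Of 34 tested genes 0 were called in mutants, with a median of 1.15, where 3.01% of all genes were higher in the mandible and 6.78% in the maxilla. In controls 28 were higher in the mandible and 0 in the maxilla, beside 8.37% and 9.46% of all genes, with a median of 3.24. Of the 34, 3 did not pass the filter on low values without the mandible arrays. The mean level of the list was 8.40, 7.0 and 8.54 in the mutant mandible, against 6.62, 6.5 and 7.84 in the mutant maxilla, so the jaws overlapped. With the replicate block 8 were higher in the mutant mandible, and without maxilla array 3 there were 7. In bulk tissue, fewer muscle cells and less RNA per cell cannot be told apart.

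Myh8, a fetal myosin, read 5.91, 4.87 and 6.47 in the mutant mandible and 4.26, 4.60 and 5.98 in the maxilla, against 9.48, 10.09 and 10.54 in the control mandible (interaction -4.62 ± 1.04, adjusted p = 0.0191). The giant sarcomere protein gene Ttn (-4.46), the Z-disc gene Ldb3 (-4.13), Tceal7 (-4.07), the fast troponin gene Tnnc2 (-4.04) and the muscle gene Atp1b4 (-3.90) had interactions in the same direction. Those of Myh8, Ttn, Tceal7 and Tnnc2 were lost without mutant mandible array 2, with adjusted p-values from 0.0641 to 0.126, and without control mandible array 3. Without mutant maxilla array 3, Ttn and Tnnc2 also missed the threshold (adjusted p = 0.0615 and 0.0879). Ttn did so too without control mandible array 1 or 2 or control maxilla array 2, and Tnnc2 without control mandible array 2, any control maxilla array or mutant maxilla array 1 or 2. Actc1, an early muscle actin, and Myog, which drives muscle differentiation, differed by 1.86 ± 0.71 (adjusted p = 0.11) and 1.81 ± 0.70 (adjusted p = 0.116) in mutants. With the replicate block both were called (adjusted p = 0.0225 and 0.0106), as they were without maxilla array 3 (0.00652 and 0.0231).

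Bone genes that were called higher in the control mandible were not called higher in the mutant mandible. Of 14 tested bone genes 0 were higher in the mutant mandible and 1 in the maxilla, beside 3.01% and 6.78% of all genes, with a median of -0.66. In controls the counts were 5 and 0, beside 8.37% and 9.46% of all genes, with a median of 1.29. With the replicate block 5 were higher in the mutant maxilla. Without maxilla array 3 the median was -0.08 and 0 genes were called. Dmp1, a gene of osteocytes, read 5.07, 5.17 and 5.09 in the mutant mandible and 5.72, 7.79 and 10.74 in the maxilla (adjusted p = 0.14; 0.0232 with the block; 0.437 without maxilla array 3).

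Of 10 tendon genes 1 was higher in mutants in the mandible and 1 in the maxilla, beside 3.01% and 6.78% of all genes, with a median of 0.40. In controls the counts were 5 and 1, beside 8.37% and 9.46% of all genes, with a median of 0.67. Under the replicate block the mutant counts were 1 and 2, and without maxilla array 3 they were 3 and 0, with a median of 0.68. Mkx, a homeobox factor of tendon, was the gene higher in the mutant mandible (0.93 ± 0.27, adjusted p = 0.0315), and it was lost without any array but mandible array 3 and maxilla array 3 (up to 0.188). Col14a1, a collagen of tendon and skin, was the one higher in the mutant maxilla (-1.10 ± 0.31, adjusted p = 0.0287) and was lost without any array but maxilla array 2 (up to 0.11) and with the mean of probe sets (0.0662). In controls they differed by 1.67 ± 0.27 and -1.26 ± 0.31, with interaction adjusted p-values of 0.357 and 0.921.

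Tnmd, a membrane protein of tendon, differed by -0.77 ± 0.30 in mutants (adjusted p = 0.117) and 1.48 ± 0.30 in controls (interaction -2.25 ± 0.42, adjusted p = 0.00529). Scx, the tendon transcription factor, differed by -0.48 ± 0.19 (adjusted p = 0.125; 0.0452 with the block) and 0.74 ± 0.19 (interaction -1.22 ± 0.27, adjusted p = 0.0175; 0.061 without mutant mandible array 2). Of 7 osteoclast genes 0 were called in mutants (1 higher in the maxilla with the block, 1 higher in the mandible without maxilla array 3) and 6 were higher in the control mandible. Of the 7, 3 did not pass the filter on low values without the mandible arrays, so these counts support no comparison. Atp6v0d2 and Ctsk, a proton pump subunit and a bone-resorbing protease, had interactions of -1.73 ± 0.34 (adjusted p = 0.00825) and -1.69 ± 0.38 (adjusted p = 0.0197). Ctsk alone of this pair was called in the mutant distal jaws with the block (adjusted p = 0.255, and 0.0348 with it), higher in the maxilla. Its interaction was lost without control mandible array 3 or mutant mandible array 2 (up to 0.067). Of 22 cartilage genes 0 were higher in the mutant mandible and 1 in the maxilla, beside 3.01% and 6.78% of all genes. The counts were 0 and 3 with the block and 1 and 0 without maxilla array 3. Of 14 macrophage and leukocyte genes 0 were higher in the mutant mandible and 2 in the maxilla, beside the same shares of all genes, with a median of -0.52. In controls the counts were 1 and 0, beside 8.37% and 9.46% of all genes. With the replicate block 8 were higher in the mutant maxilla, and without maxilla array 3 there were 0. One of the 2 was the complement gene C1qa (-0.75 ± 0.23, adjusted p = 0.0411; 0.00254 with the block), which was lost under the renewed quantile normalization (0.054) and without any array but mandible array 3 (up to 0.228). The schwann cell factor Sox10 (-0.69 ± 0.16, adjusted p = 0.00771) and the glial protein S100b (-2.18 ± 0.57, adjusted p = 0.0195) were higher in the mutant maxilla, and both lost the call without maxilla array 1 or 2 (up to 0.0643 and 0.102) and S100b also without mandible array 1 or 2.

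The proximal ends of mutant jaws were compared in the same way. Proximal jaws differed in 776 genes (5.57%), 173 higher in the mandible (1.24%) and 603 in the maxilla (4.33%), and the jaw difference differed between the ends in 100 genes (0.717%). Without proximal maxilla array 3, which stood nearer to the proximal mandible arrays, the proximal count was 1402 (403 and 999) and the end count 126. The proximal count was 245 without proximal maxilla array 1, 294 without proximal maxilla array 2, 460 without proximal mandible array 2 and 1579 with the replicate block. The end count was between 45 and 66 without distal mandible array 2 or 3, distal maxilla array 1, proximal mandible array 3, or proximal maxilla array 1 or 2, and 170 with the block. Of the mandibular identity factors 8 were higher in the proximal mandible and 1 in the maxilla (9 and 1 without proximal maxilla array 3), and 5 had a called end interaction. The shares over all genes were 1.24%, 4.33% and 0.717%. Hand2 was apart in both ends (4.84 ± 0.36 proximally; end interaction 1.98 ± 0.51, adjusted p = 0.0914, and 0.00873 without maxilla array 3), as was Pitx1 (2.69 ± 0.19 proximally; end interaction adjusted p = 0.578).

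Dlx5, Dlx6 and Dlx6os1, which were not called or turned in the distal ends, were all higher in the proximal mandible. Their proximal differences were 1.65 ± 0.17, 2.14 ± 0.25 and 2.46 ± 0.26 (adjusted p from 1.56e-05 to 4.59e-05). Their end interactions were -1.85 ± 0.25 (adjusted p = 0.00066), -2.25 ± 0.35 (0.00323) and -3.53 ± 0.36 (4.32e-05), all called without any single array. Dlx3 had an end interaction of -1.40 ± 0.31 (adjusted p = 0.0377), and Bmper one of -1.87 ± 0.40 (adjusted p = 0.0309). That of Dlx3 was lost without any array except distal maxilla array 2 and proximal mandible array 2 (up to 0.125). That of Bmper was lost without any array except distal mandible array 1, distal maxilla array 3, proximal mandible array 2 and proximal maxilla array 3 (up to 0.0993).

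Nr2f1, Pax7, Six2 and Nr2f2 were called distally and not proximally, except that Six2 was called proximally with the block (adjusted p = 0.0801, and 0.0135 with it), and all 4 had a called end interaction. Nr2f1 differed by 0.02 ± 0.34 in the proximal ends (end interaction -3.0 ± 0.48, adjusted p = 0.00431), where all arrays lay between 11.85 and 12.72. The end interactions of Pax7 (-2.54 ± 0.52, adjusted p = 0.024), Six2 (-1.41 ± 0.28, adjusted p = 0.0228) and Nr2f2 (-1.30 ± 0.29, adjusted p = 0.0351) rested on several arrays. That of Pax7 was lost without distal mandible array 2, distal maxilla array 1 or 2 or proximal mandible array 1 or 3 (up to 0.0773). That of Six2 was lost without distal mandible array 3, distal maxilla array 1 or 2, proximal mandible array 3 or proximal maxilla array 1 (up to 0.0717), and that of Nr2f2 without any array except distal mandible array 3, distal maxilla array 3 and proximal mandible array 2 (up to 0.115). Alx1, a homeobox factor of the frontonasal crest, did the reverse. It read 11.85, 12.32 and 11.66 in the distal mandible and 12.82, 12.85 and 12.48 in the distal maxilla (-0.77 ± 0.35, adjusted p = 0.195), but 6.05, 7.85 and 6.92 in the proximal mandible against 12.45, 12.61 and 11.14 in the proximal maxilla (end interaction 4.36 ± 0.50, adjusted p = 0.000136).

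Qrfpr and Masp1 were further apart distally (end interactions 3.14 ± 0.17 and 1.80 ± 0.20, adjusted p = 1.28e-09 and 0.000124). Klhl14 had an end interaction of 2.25 ± 0.33 (adjusted p = 0.00204). The end interactions of Sfrp4 (adjusted p = 0.0485), Hey2 (0.0351), Tagln (0.0193), Lef1 (0.0351), Sfrp1 (0.0193), Aldh1a2 (0.0363), Fezf2 (0.0147) and Hrnr (0.0301) were also called, and each was lost without some array. That of Fezf2 was lost without proximal mandible array 3 alone (0.0543), that of Tagln without distal mandible array 2 or 3 or distal maxilla array 1 or 2 (up to 0.0611), and that of Sfrp1 without distal mandible array 2, distal maxilla array 1, proximal mandible array 3 or proximal maxilla array 1 (up to 0.0654). The others were lost without any one of 7 to 10 of the 12 mutant arrays, with adjusted p-values up to 0.147 for Sfrp4, 0.125 for Aldh1a2, 0.117 for Hey2 and Lef1 and 0.0773 for Hrnr, and distal mandible array 2 and distal maxilla array 1 were among them for each of these 5 genes. The bone genes Ibsp, Ifitm5 and Panx3 were higher in the proximal mandible (3.38 ± 0.65, 2.94 ± 0.54 and 3.25 ± 0.42), whereas distally they differed by -1.60 ± 0.65, -1.16 ± 0.54 and -0.68 ± 0.42. None of the 3 was called distally, and Ibsp was with the replicate block (adjusted p = 0.14, and 0.0173 with it). Their end interactions were called without any single array.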

How the data were processed

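RNA from the distal and proximal ends of mutant and control jaws was hybridised to 24 expression arrays, in 8 groups of 3, with 5 µg of RNA each per the labels. The authors deposited 1 signal per probe set, normalised with RMA per the submitters' processing notes. The deposited values, which run from 3.29 to 14.86, were read as log2 from that range, since no label states the base. The number of arrays limits the precision.

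Of 45101 probe sets, 34945 had 1 gene symbol in the platform annotation, 932 had several and 9160 had none. For each of 18193 genes the probe set that was brightest on average across the 24 arrays was kept. A gene was tested if at least 3 arrays lay above their 40th percentile (6.33 to 6.47), which left 13942. In R 4.3.3, limma 3.58.1 (lmFit, contrasts and eBayes with a mean-variance trend) estimated a mean for each of the 8 groups from the 24 arrays together, so all groups shared 1 estimate of the spread, and p-values were adjusted by Benjamini-Hochberg over all genes tested. The fit was tested on simulated data. Figures were drawn with matplotlib 3.10.9, and tables were made with pandas 2.3.3 and numpy 2.4.6 under Python 3.11.15.

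The named genes were the 12 with the largest called difference in each direction and no overlap of the jaws, the 6 largest genotype interactions in each direction, the 8 in each direction called alike in both genotypes, the 5 largest end interactions in each direction, the jaw lists and Tgfbr1, and up to 4 members of each other list by the size of their statistic. The rule skipped Xist, Y-linked genes and unnamed transcripts, and not every gene so named is described. The members and lists were chosen with earlier results of these data known.

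Residuals of equally numbered arrays of the mutant distal jaws correlated at 0.35, 0.359 and 0.206, and of the mutant proximal jaws at 0.24, 0.254 and 0.152, so the numbers were taken to pair the samples. In control distal jaws the values were 0.327, 0.062 and 0.004. Alternatives were a renewed quantile normalization, array weights, no filter or a 60th percentile filter, no trend, the mean of probe sets, a fit of only the arrays compared, replicate blocks and leaving out each array.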

Additional observations from a re-analysis of the deposited data

Results flagged for a closer look

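The jaw difference (mandible minus maxilla, log2) differed between mutant and control distal ends, by the test of the interaction, for 32 of the genes named. All values here are such differences of differences, mutant minus control. Among jaw factors the values were -0.91 for Dlx5, -2.26 for Dlx6os1, 2.57 for Emx2, 1.07 for Tfap2a, 2.43 for Tfap2b and -1.01 for Pax9. Among signalling and secreted factors they were 2.49 for Cbln4, 3.83 for Dkk4, 2.49 for Hey2, -1.40 for Tgfbi, -1.39 for Sfrp1, 1.10 for Lef1 and -1.17 for Aldh1a2. Among nasal, ciliary and other epithelial or neural genes they were 4.04 for Bpifa1, 2.83 for Aldh1a1, 3.37 for Deup1, 2.21 for Ccno, 3.5 for Dynap, 3.36 for Stfa3, 3.14 for Sdr16c6, -1.98 for Fezf2 and 1.52 for Klhl14. Muscle genes had the values -4.62 (Myh8), -4.46 (Ttn), -4.13 (Ldb3), -4.07 (Tceal7), -4.04 (Tnnc2) and -3.90 (Atp1b4), and tendon and osteoclast genes -2.25 (Tnmd), -1.22 (Scx), -1.73 (Atp6v0d2) and -1.69 (Ctsk).

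Between the distal and proximal ends of mutants the jaw difference differed, by the same kind of test, for 24 of the genes named, given as distal minus proximal. The Dlx values were -1.40 (Dlx3), -1.85 (Dlx5), -2.25 (Dlx6) and -3.53 (Dlx6os1). Other jaw factors had -1.87 (Bmper), -3.0 (Nr2f1), -1.30 (Nr2f2), -2.54 (Pax7), -1.41 (Six2) and 4.36 (Alx1). Sfrp4 had 2.80, Qrfpr 3.14, Masp1 1.80, Klhl14 2.25, Hey2 1.89, Tagln 1.20 and Lef1 0.75. Sfrp1 had -1.67, Aldh1a2 -1.02, Fezf2 -2.35 and Hrnr -3.70, and the bone genes Ibsp, Ifitm5 and Panx3 had -4.98, -4.10 and -3.92.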

How the results depend on the processing

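Of 81 genes named and called between the mutant distal jaws, 54 kept the call in all alternatives that gave them a value, 61 in those that left out 1 array and 59 in the others, and 0 changed direction. Of 32 called genotype interactions 14 kept the call throughout, and of 24 end interactions 7. A fit of only the arrays compared cost 19 of the 81 calls (Plagl1, Nr2f2, Foxl2, Pou3f4, Tfap2b, Alx4, Osr1, Sult1e1, Dkk4, Tgfbi, Ccno, Wnt10a, Irx1, Ina, Prph, Sox10, Bmpr1b, Mkx and C1qa) and array weights 0.

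Counts of called genes moved further. In the mutant distal jaws they were 3444 with array weights, 676 from only the arrays compared and 439 with a log2 difference of at least 1. In the control distal jaws the counts were 3882 with array weights and 700 with a difference of at least 1, and for the genotype interaction 1127 and 254. The mutant proximal counts were 83 from only the arrays compared and 266 with a difference of at least 1, and the end interaction had 33 from only the arrays compared. Array weights changed the estimated differences and the spread, the block changed the estimate of the spread, and the smaller fit had fewer samples. Other causes were not tested.

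In paired analyses, the replicate block entered as a fixed or a random term. The counts were 2229 and 2152 in the mutant distal jaws, 1052 and 991 for the genotype interaction, 1579 and 1515 in the mutant proximal jaws, and 170 and 189 for the end interaction. With the fixed block and mutant distal maxilla array 3 left out, an alternative chosen after seeing the data, they were 2337, 802 and 188 for the mutant distal jaws and the interactions with genotype and end. The block ended none of the 81 calls. In the control distal jaws the residuals of equal numbers correlated at 0.327, 0.062 and 0.004, and pairing there was left undecided. The mean level of 4 sex-linked genes was 6.36, 8.66 and 8.84 in control distal mandible arrays 1, 2 and 3. It was 6.43, 8.94 and 9.06 in control distal maxilla arrays 1, 2 and 3, so array 1 was the lowest in both control jaws. In mutant distal arrays 1, 2 and 3 the level was 10.18, 6.38 and 9.78 in the mandible and 10.05, 6.26 and 9.90 in the maxilla. There array 2 was the lowest in both jaws.

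Leaving out 1 array at a time gave 655 to 1856 calls in the mutant distal jaws, 1645 to 2108 in the control distal jaws, 191 to 589 for the genotype interaction, 245 to 1402 in the mutant proximal jaws and 45 to 137 for the end interaction. Some differences that were not called changed sign. Dlx3 was 0.003 after quantile normalization and 0.042 with the mean of probe sets, and Dlx4 was -0.014 with the block and no maxilla array 3. Meox2, Stfa3 and Sdr16c6 were 0.13, 0.30 and 0.04 with array weights and 0.20, 0.41 and 0.064 with the block and no maxilla array 3. Without 1 array the ranges were -0.18 to 0.06 for Dlx3, -0.14 to 0.19 for Dlx4, -0.34 to 0.089 for Dlx6, -0.049 to 0.33 for Dynap, -0.49 to 0.33 for Ldb3, -0.46 to 0.40 for Meox2, -0.81 to 0.26 for Sdr16c6, -0.82 to 0.51 for Stfa3, -0.71 to 0.36 for Tbx22 and -0.16 to 0.023 for Tgfbr1. Differences against a group at background are limits set by the array, and 3 arrays a group leave the small differences undecided.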
